A study of Sus scrofa with 30 samples.

Results

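The genes described here are receptors of fibroblast growth factor (FGF) and the feedback genes of the ERK pathway that these receptors switch on. They were chosen by name, as 2 receptors (FGFR1 and FGFR2), 1 ligand (FGF4) and 7 genes that ERK signaling is known to induce (DUSP6, DUSP4, SPRY2, SPRY4, SPRED2, ETV4 and ETV5), and matched to NCBI gene identifiers in the count table of all embryos. Of these 10 symbols, 9 had a row among the 13103 genes of that table, and FGF4 is not analysed here. The RNA came from single whole embryos of Sus scrofa, flushed from the uterus of gilts on Days 8, 10 and 12 after insemination, and each day had 5 female and 5 male embryos, so that the 30 libraries form 6 groups. The embryos had no engineered allele and were not treated themselves. The gilts were crosses of German Landrace and Pietrain, and their cycles had been synchronized with hormones (Altrenogest, then PMSG and human chorionic gonadotropin). All gilts were inseminated with semen of a single Pietrain boar, and the sex of an embryo was set by qPCR on its DNA. At each stage the study took at least a female and a male embryo from the same gilt, but the gilt of each embryo is not in the labels, so the p-values below treat littermates as independent.

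FGFs are secreted proteins that bind receptor tyrosine kinases on the cell surface, and the adaptor FRS2 links the bound receptor to RAS, RAF, MEK and finally ERK. Active ERK switches on genes whose products damp the same pathway, which makes their RNA a common readout of ERK output. In mammalian blastocysts FGF4 from the epiblast is known to act on FGFR1 and FGFR2 of the surrounding lineages, and FGF ligands of the uterus are known to reach the pig conceptus as it elongates. A change in RNA of a whole embryo can be a change in the share of cells of a type or in RNA per cell, and these cannot be told apart here.

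Total counts per embryo ran from 6068212, in Day 12 female d12_f_245, to 34002508. Levels are read counts scaled to library size (CPM) after TMM correction, the edgeR adjustment for differences in library composition, and a mean is given with the SD of the 10 embryos of its day. A gene was differentially expressed (DEG) between days when the edgeR quasi-likelihood test gave an adjusted p under 0.001 and the log2 fold change went beyond 1. Levels are not compared between genes, because no transcript lengths were used. The labelled tissue was checked against markers of its lineages. The trophectoderm list of 8 genes summed to 20687 to 25317 CPM on Day 8, 32720 to 50131 CPM on Day 10 and 8642 to 26650 CPM on Day 12. Most of that was KRT8 (medians 12406, 25073 and 9154 CPM) and KRT18 (medians 10415, 16491 and 2640 CPM). From Day 10 to Day 12 the medians of GATA2, GATA3 and TFAP2A rose, while those of CDX2, TFAP2C and TEAD4 fell. The sum thus mainly follows KRT8 and KRT18 and is not read as the share of trophectoderm. The epiblast list of 8 genes summed to 378 to 548, 701 to 1676 and 519 to 1144 CPM, carried on Day 12 by DNMT3B (median 754 CPM), TDGF1 (81.3 CPM) and LIN28A (42.6 CPM). The higher sum of Day 10 was mainly that of TDGF1, with medians of 14.2 CPM on Day 8 and 593 CPM on Day 10. The median of DNMT3B also rose on that interval, and those of the other listed genes fell. This sum is likewise not read as the share of epiblast. POU5F1 was between 0.611 and 4.05 CPM on Day 12, with a median of 1.54 against 31.5 on Day 8. NANOG was then at most 0.143 CPM, SOX2 at most 0.0387 CPM and NODAL had no count in any embryo, where 3 counts would be 0.434 CPM in the smallest library.

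FGFR2 rose across both intervals, while the 7 feedback genes split. DUSP6 was highest on Day 10 and lowest on Day 12, SPRY2 fell over both intervals, and SPRY4 fell from Day 8 to Day 12. ETV4 and DUSP4 rose from Day 10 to Day 12. FGFR1, ETV5 and SPRED2 were not called in any comparison, SPRED2 because its difference of 1.98-fold between Days 10 and 12 lay just under the fold threshold.

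From Day 8 to Day 10, 2 of the 9 genes were called higher (FGFR2 and DUSP6) and 1 lower (SPRY2), where 9.88% of all genes were called higher and 4.20% lower. From Day 10 to Day 12, 3 were called higher (FGFR2, DUSP4 and ETV4) and 2 lower (DUSP6 and SPRY2), against 14.9% and 8.39% of all genes. From Day 8 to Day 12, 2 were called higher (FGFR2 and ETV4) and 3 lower (DUSP6, SPRY2 and SPRY4), against 22.0% and 10.4%. The median log2 fold change of the 9 genes was -0.35, 0.69 and 0.33 in these comparisons, and that of all genes was 0.03, 0.04 and 0.09. The embryos of the compared days did not overlap for 1, 2 and 4 of the 9 genes, where this held for 22.0%, 16.6% and 31.7% of all genes.

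**Figure D1:**
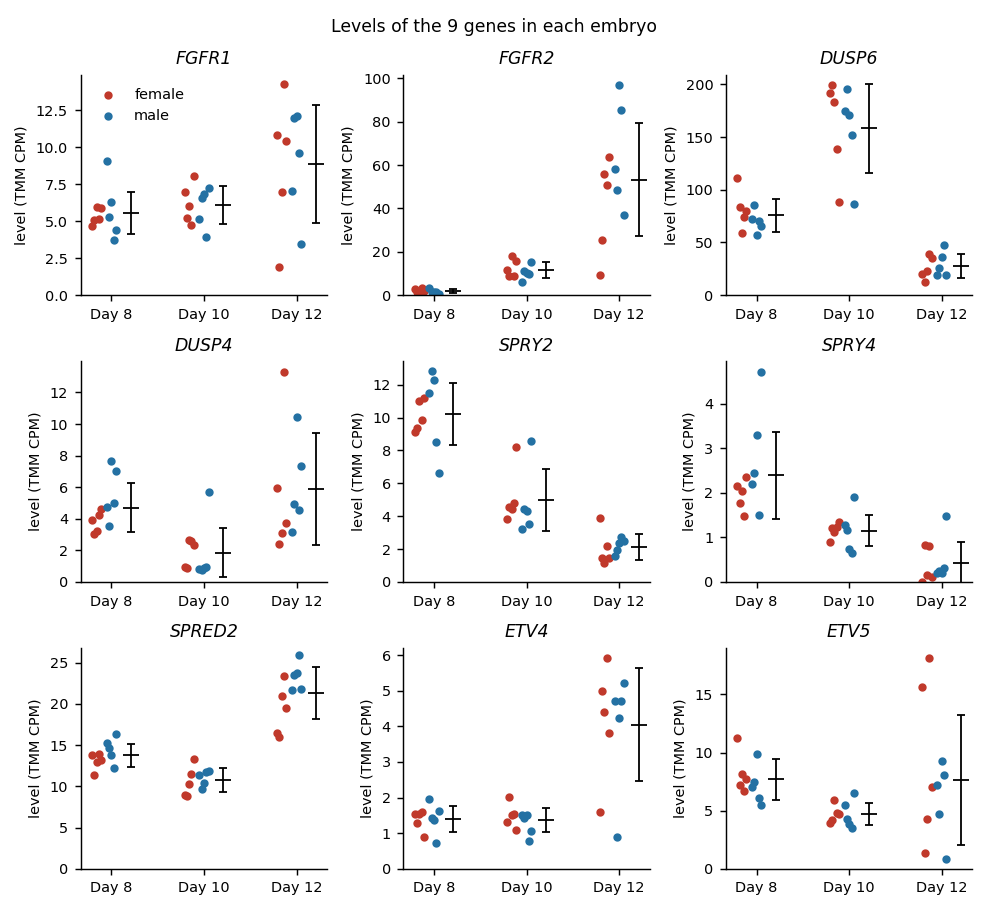
Level (TMM-normalized CPM, linear axis from 0) of each gene in each of the 30 embryos by day, with females in red, males in blue and the mean ± SD of the 10 embryos of a day beside them. FGFR2 climbs from a mean of 1.94 to 53.1 CPM, DUSP6 peaks on Day 10, SPRY2 and SPRY4 step down, and FGFR1 and ETV5 have their widest scatter on Day 12.

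FGFR2 (gene 396762, Sscrofa11.1 chr14:131183095-131285001) is a receptor whose splice forms bind either the FGFs of mesenchyme, such as FGF7 and FGF10, or FGFs such as FGF4. The counts are per gene and do not separate these forms. FGFR2 ranged from 0.557 to 3.32 CPM on Day 8 with a median of 1.72, from 6.17 to 17.9 CPM on Day 10 with a median of 10.6, and from 9.11 to 97.0 CPM on Day 12 with a median of 53.4. All Day 10 embryos were above all Day 8 embryos, and on Day 12 only female d12_f_245 fell within the range of Day 10. The mean rose from 1.94 ± 0.870 to 11.5 ± 3.65 CPM, a log2 fold change of 2.56 ± 0.31 (SE, edgeR adjusted p = 4.16e-08), and then to 53.1 ± 26.1 CPM, a further 2.21 ± 0.29 (edgeR adjusted p = 1.00e-07). The rise from Day 8 to Day 12 was 27.2-fold. The highest embryo was 2.91-fold above the lowest on Day 10 and 10.6-fold on Day 12. The female embryos d12_f_245 and d12_f_271 had the lowest FGFR2 of Day 12, at 9.11 and 25.3 CPM, and the male embryo d12_m_307 came next at 37.1 CPM. Without d12_f_245, the library with the fewest counts, the second step was 2.33, and it was 2.51 without all 3. This step was not called with female embryos only.

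FGFR1 (gene 100153248, chr15:48053895-48106634), the receptor through which epiblast and primitive endoderm cells are known to sense FGF4, had levels of 3.71 to 9.05 CPM on Day 8, 3.92 to 8.03 CPM on Day 10 and 1.92 to 14.3 CPM on Day 12. The 3 ranges overlapped widely. Its log2 fold change was 0.13 from Day 8 to Day 10 (95% interval -0.33 to 0.58) and 0.55 from Day 10 to Day 12 (95% interval 0.09 to 1.0, edgeR adjusted p = 0.0437), so neither was called. With scaling by library size alone the sign of the first value turned. The widest spread was that of Day 12, where the highest embryo was 7.45-fold above the lowest, against 2.05-fold on Day 10.

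DUSP6 (gene 100622968, chr5:93303058-93307510) encodes a cytoplasmic phosphatase that removes the activating phosphates from ERK itself, and it is widely used as a readout of FGF signaling in embryos. It ranged from 56.7 to 111.3 CPM on Day 8 with a median of 72.9, from 86.4 to 199 CPM on Day 10 with a median of 173, and from 12.2 to 47.7 CPM on Day 12 with a median of 24.3. Every Day 12 embryo was below every embryo of Days 8 and 10. The mean rose from 75.7 ± 15.9 to 158 ± 41.8 CPM (log2 fold change 1.06 ± 0.19, edgeR adjusted p = 2.91e-05) and then fell to 27.7 ± 11.15 CPM, 5.70-fold lower (log2 fold change -2.51 ± 0.20, edgeR adjusted p = 4.17e-12). Day 12 was also 2.73-fold below Day 8. The rise to Day 10 lies close to the fold threshold, and it was called in neither sex alone. With scaling by library size alone it was 0.89 and not called, and under that scaling 55.9% of all calls between Days 8 and 10 were higher in place of 70.2%.

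Day 10 male d10_m_453 and female d10_f_454 stood apart for DUSP6, at 86.4 and 88.4 CPM, while the other 8 Day 10 embryos lay between 139 and 199 CPM. The same embryos had the highest Day 10 levels of SPRY2 (8.60 and 8.18 CPM) and HAND1, a transcription factor of mesoderm and trophoblast, which was at 166 and 175 CPM there and at most 78.1 CPM in the other 8. The other mesoderm markers that were measured did not, in sum, set these embryos apart. Whether the makeup of these embryos has a part in their feedback gene levels was not tested. Without both embryos the rise of DUSP6 was still called.

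DUSP4 (gene 100514374, chr15:55491084-55508460) encodes a nuclear phosphatase of ERK. Its levels were 3.06 to 7.63 CPM on Day 8 (median 4.43), 0.738 to 5.71 CPM on Day 10 (median 0.960) and 2.40 to 13.3 CPM on Day 12 (median 4.74). On Day 10 it formed a low cluster of 6 embryos under 1 CPM, 3 female embryos between 2.32 and 2.63 CPM, and male d10_m_453 at 5.71 CPM. The log2 fold change was -1.33 ± 0.35 from Day 8 to Day 10 (edgeR adjusted p = 0.00197), which missed the threshold, and 1.66 ± 0.35 from Day 10 to Day 12 (edgeR adjusted p = 0.000170), which passed. Day 12 stood at 5.88 ± 3.54 CPM and Day 8 at 4.70 ± 1.53 CPM, with a log2 difference of 0.33 (95% interval -0.34 to 1.0). DUSP4 thus had its low point on the day when DUSP6 had its high point. The first difference was called by the robust GLM (-1.67), DESeq2 (-1.33), library size alone (-1.53) and without d10_m_453 and d10_f_454 (-1.84). The second lost its call with only these 2 days in the fit (1.62, edgeR adjusted p = 0.00183) and in each sex alone.

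SPRY2 (gene 100157266, chr11:52153695-52158766) encodes a Sprouty protein, which blocks the step from the receptor to RAS and RAF. It ranged from 6.65 to 12.8 CPM on Day 8, from 3.23 to 8.60 CPM on Day 10 and from 1.13 to 3.91 CPM on Day 12, with medians of 10.4, 4.44 and 2.06 CPM. Days 8 and 12 did not overlap, and on each interval a few embryos of neighbouring days did. The mean fell from 10.2 ± 1.89 to 4.98 ± 1.86 CPM (log2 fold change -1.03 ± 0.19, edgeR adjusted p = 4.05e-05) and to 2.13 ± 0.817 CPM (-1.25 ± 0.20, edgeR adjusted p = 3.03e-06), 4.86-fold in all. Both steps depend in part on where the fold threshold lies, and without d10_m_453 and d10_f_454 the second step was -0.98 and was not called. The first step was called in neither sex alone, and the second in females but not in males. The difference between Days 8 and 12 was called under each of the 14 alternatives tried.

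SPRY4 (gene 100512891, chr2:143877334-143891280), another Sprouty gene, was low throughout. It ranged from 1.48 to 4.72 CPM on Day 8, from 0.639 to 1.91 CPM on Day 10 and from 0 to 1.47 CPM on Day 12, when female embryos d12_f_245, d12_f_289 and d12_f_299 had 3 counts or fewer. No Day 12 embryo reached the lowest Day 8 embryo. The decrease from Day 8 to Day 12 was called (log2 fold change -2.37 ± 0.38, edgeR adjusted p = 1.87e-06), and those over the single intervals, -1.05 and -1.32, were not (edgeR adjusted p = 0.0130 and 0.00328). The call on the first interval was made with 2 days in the fit (-1.05), and that on the second by the robust GLM (-1.91), DESeq2 (-1.34) and without d12_f_245, d12_f_271 and d12_m_307 (-1.90).

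SPRED2 (gene 100518067, chr3:76527646-76649652), whose protein is known to bring neurofibromin to the membrane and so to hold RAS in check, had the tightest levels of the 9 genes. It ranged from 11.4 to 16.3 CPM on Day 8, from 8.84 to 13.3 CPM on Day 10 and from 15.96 to 25.9 CPM on Day 12, and every Day 12 embryo was above every Day 10 embryo. The log2 fold change from Day 10 to Day 12 was 0.98 ± 0.09 (95% interval 0.80 to 1.17, edgeR adjusted p = 1.54e-10). The fold threshold of 1 on the log2 scale kept it from being called, and 6 of the 14 alternatives put it just above. From Day 8 to Day 10 it was -0.35 (edgeR adjusted p = 0.00207) and from Day 8 to Day 12 it was 0.63 (edgeR adjusted p = 4.38e-07).

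ETV4 (gene 100516755, chr12:19531507-19548303) and ETV5 (gene 100623208, chr13:123873346-123930292) encode ETS transcription factors that FGF signaling is known to induce and that carry its signal to target genes. ETV4 had medians of 1.48 and 1.47 CPM on Days 8 and 10, with ranges of 0.722 to 1.95 and 0.776 to 2.02 CPM that lay on top of each other. On Day 12 it ranged from 0.899 to 5.93 CPM with a median of 4.56. There 8 embryos were above all embryos of the earlier days, while female d12_f_245 (1.59 CPM) and male d12_m_275 (0.899 CPM) stayed within the earlier range. The log2 fold change from Day 10 to Day 12 was 1.56 ± 0.24 (edgeR adjusted p = 1.98e-06), and its call was lost in each sex alone.

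ETV5 ranged from 5.46 to 11.3 CPM on Day 8 and from 3.51 to 6.50 CPM on Day 10, and on Day 12 from 0.851 to 18.1 CPM, a 21.3-fold span around a median of 7.12. The Day 12 embryos reached above and below all earlier embryos. No comparison of ETV5 was called (log2 fold change -0.70, 0.69 and -0.01, edgeR adjusted p = 0.0608, 0.0636 and 0.970). Its 95% interval between Days 8 and 12 ran from -0.63 to 0.61, and the level was 7.69 ± 1.73, 4.72 ± 0.968 and 7.65 ± 5.60 CPM on Days 8, 10 and 12.

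Male d12_m_307 (0.851 CPM) and female d12_f_271 (1.38 CPM) had the lowest ETV5 of Day 12. They also had the lowest FGFR1 of that day, at 3.48 and 1.92 CPM. The hypoblast markers HNF4A and PDGFRA were lowest in the same embryos, with HNF4A at 51.8 and 29.4 CPM against a Day 12 median of 163 and PDGFRA at 77.2 and 43.9 CPM against a median of 219. The hypoblast is the inner layer that comes to line the trophectoderm. Its list of 8 markers summed to 747 to 1265 CPM on Day 8, 592 to 1086 CPM on Day 10 and 1220 to 5565 CPM on Day 12. The lowest Day 12 sum, 1220 CPM, was that of female d12_f_271. Most of the Day 12 sum was COL4A1 (median 1133 CPM) and LAMA1 (median 720 CPM). From Day 10 to Day 12 the median of GATA6 fell from 57.1 to 43.9 CPM, while those of the other listed genes rose. The sum is thus not read as the share of hypoblast. Over the whole list male d12_m_307 did not stand apart, since its sum of 1822 CPM was above those of males d12_m_276 (1496 CPM) and d12_m_286 (1783 CPM), which had ETV5 at 9.31 and 8.08 CPM and FGFR1 at 12.1 and 9.62 CPM. The part of the hypoblast in the levels of ETV5 and FGFR1 was not tested. The 5 mesoderm markers measured summed to 28.4 to 51.2, 60.5 to 224 and 648 to 1890 CPM on Days 8, 10 and 12. The 4 markers of uterine epithelium that were measured summed to 0.363 to 5.20, 0.925 to 13.9 and 9.28 to 35.9 CPM on Days 8, 10 and 12. The 3 measured markers of maternal leukocytes and blood summed to 37.2 to 51.2, 32.1 to 45.6 and 28.4 to 74.0 CPM. Most of that was ITGAM (medians 41.8, 34.3 and 51.3 CPM), while the hemoglobin gene HBB had medians of 0, 0 and 0.945 CPM.

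**Figure D2:**
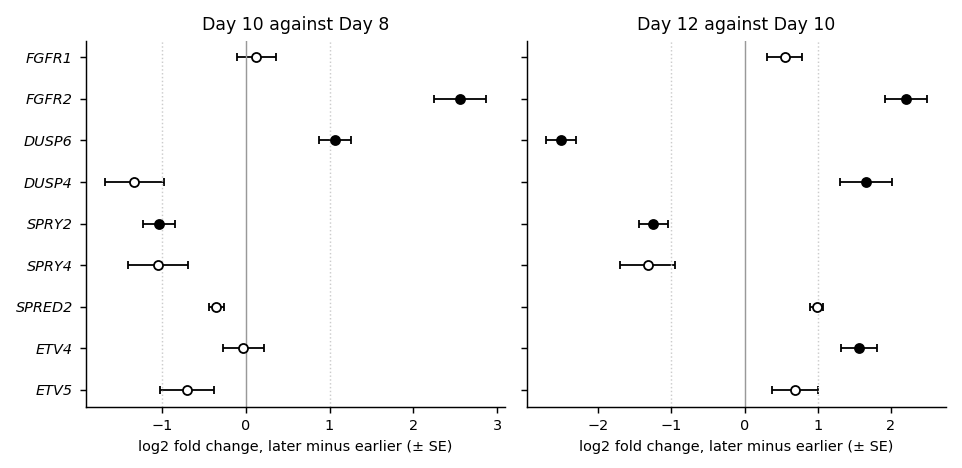
Log2 fold change between days with its SE for the 9 genes (later minus earlier day, n = 10 embryos per day), where filled circles passed the call and dotted lines mark a log2 fold change of 1 in either direction. FGFR2 lies at 2.56 and 2.21, DUSP6 turns from 1.06 to -2.51, and SPRED2 has the shortest error bars.

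To set ERK output against the level of FGFR2, the log2 ratio of each feedback gene to it was taken within each embryo. The change of this ratio between days was tested. Other FGF receptors did not enter the ratios. All 7 ratios use the same FGFR2 values, so they are not independent of each other, and the rise of FGFR2 by itself lowers each of them. The p-values of these tests therefore do not show that a feedback gene itself fell. ETV4 had a log2 fold change of -0.03 from Day 8 to Day 10, and its ratio still fell 6.07-fold. FGFR2 is common to all 7, so the order of the falls is only the order of the genes' own changes in log2 CPM. How far the genes differ in their change was not tested.

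All 7 ratios fell from Day 8 to Day 10. DUSP6 fell least, from 5.33 ± 0.68 to 3.78 ± 0.77, 2.94-fold (permutation test, adjusted p = 1.24e-04), and it was the only 1 whose embryos overlapped between these days. FGFR2 itself did not overlap between them. DUSP4 fell most, 17.8-fold, SPRY2 fell 12.7-fold and SPRY4 11.8-fold (permutation test, adjusted p = 2.80e-05 each, from 2e-05, the smallest p that the 100000 resamples can give).

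From Day 10 to Day 12 the falls came in another order, although differences between genes were not tested. DUSP6 fell most, 24.2-fold, from 3.78 ± 0.77 to -0.82 ± 0.77, with no overlap (permutation test, adjusted p = 2.80e-05). SPRY4 fell 12.8-fold, SPRY2 9.43-fold, ETV5 3.42-fold and SPRED2 2.09-fold (permutation tests, adjusted p from 2.80e-05 to 0.00519). DUSP4 changed by -0.29 ± 0.44 (SE, permutation test, adjusted p = 0.525) and ETV4 by -0.66 ± 0.38 (SE, permutation test, adjusted p = 0.105), which did not pass. Over the whole span from Day 8 to Day 12 the falls ran from 9.58-fold for ETV4 to 151-fold for SPRY4, whose Day 12 values rest on very few counts. All 7 were without overlap in that span, as was FGFR2 itself. How many other genes would be so in a ratio to FGFR2 was not determined, so this count is not a result about the feedback genes.

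**Figure D3:**
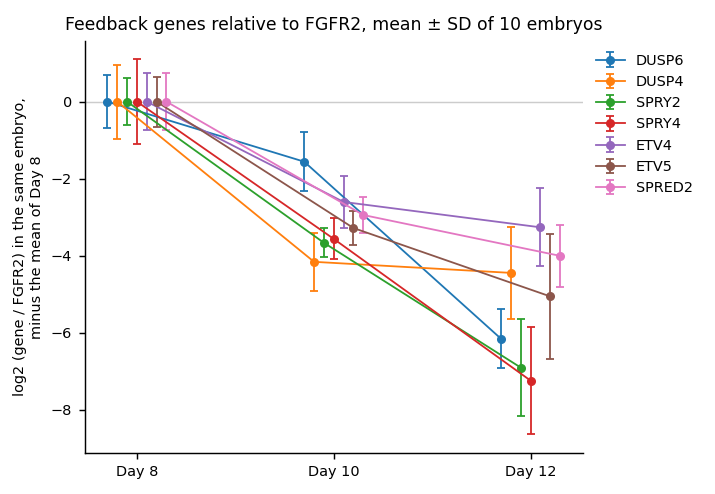
Log2 ratio of each of the 7 feedback genes to FGFR2 in the same embryo, minus the mean ratio of Day 8, shown as mean ± SD of the 10 embryos of each day. All lines go down to Day 10, by 1.56 for DUSP6 and by 4.16 for DUSP4, and after Day 10 DUSP6 drops by a further 4.59 while DUSP4 and ETV4 change by -0.29 and -0.66.

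Within a day, embryos with more FGFR2 were not shown to have more or less of a feedback gene. Of 21 correlations of log2 CPM (7 genes on 3 days, n = 10 embryos each), 15 were positive, Pearson's r ran from -0.68 to 0.80, and none passed after adjustment. By the unadjusted permutation p of r, 4 were under 0.05. SPRED2 on Day 12 had r = 0.80 and rho = 0.60 (permutation p = 0.00626 and 0.0744, adjusted p = 0.131 and 0.463), and r = 0.38 without the 2 embryos farthest from the median of FGFR2, so it rests on those. SPRY4 on Day 8 had r = -0.68 and rho = -0.47 (permutation p = 0.0359 and 0.180, adjusted p = 0.220 and 0.710), and r = -0.38 without 2 embryos. On Day 10, SPRY2 had r = 0.66 and rho = 0.44 (permutation p = 0.0376 and 0.203, adjusted p = 0.220 and 0.710), with r = 0.82 without 2 embryos. Those 2 did not include d10_m_453 and d10_f_454, which had the highest SPRY2 of Day 10 and FGFR2 at 15.3 and 15.6 CPM. On the same day DUSP4 had r = 0.64 and rho = 0.61 (permutation p = 0.0474 and 0.0654, adjusted p = 0.220 and 0.463), with r = 0.60 without 2 embryos. DUSP6 was not among these 4, with r = -0.45 on Day 10 and 0.62 on Day 12 (permutation p = 0.196 and 0.0525, adjusted p = 0.518 and 0.220). Its rho was -0.25 and 0.67 on these days (permutation p = 0.491 and 0.0399, adjusted p = 0.883 and 0.463). Without 2 embryos its r was -0.77 and 0.68.

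**Figure D4:**
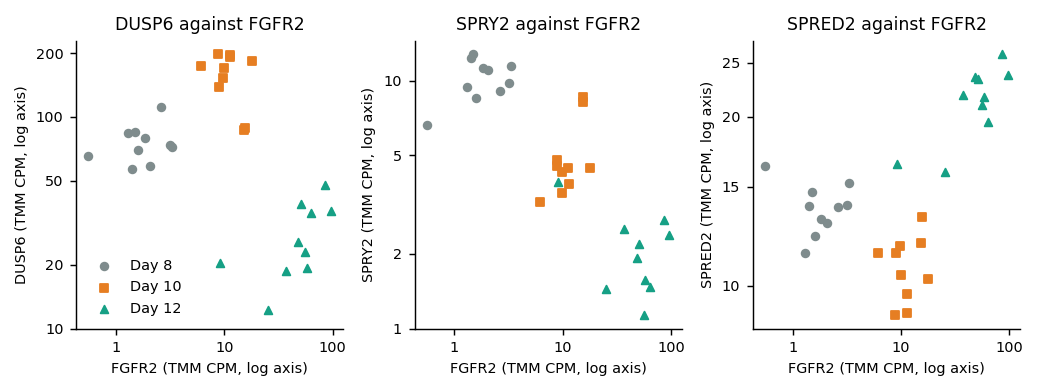
DUSP6, SPRY2 and SPRED2 against FGFR2 in each of the 30 embryos (TMM-normalized CPM, both axes logarithmic), with Day 8 as circles, Day 10 as squares and Day 12 as triangles. The days form separate clouds, so no relation is drawn across them, and the isolated Day 12 triangle at the left is female d12_f_245, with FGFR2 at 9.11 CPM.

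The genes whose level was most like that of FGFR2 over the 30 embryos, among 11845 genes with a mean of at least 1 CPM, were PLBD1, ZHX1 and ARID3A (Pearson's r = 0.96 each, a description across embryos of 3 days that share the trend over time). With the mean of each day subtracted they were DAB2 (r = 0.84), HAVCR1 (r = 0.83) and IRF2BPL (r = 0.83). For DUSP6 they were RAP2B (r = 0.95), UBA3 (r = 0.94) and RASA2 (r = 0.94) over the 30 embryos, and NAV2 (r = 0.79), GPHN (r = 0.76) and CBFA2T2 (r = 0.75) with day means subtracted. RAP2B and RASA2 had the same course as DUSP6, with means of 19.6, 32.3 and 5.91 CPM and of 36.1, 66.2 and 10.1 CPM on Days 8, 10 and 12.

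Female and male embryos were not shown to differ in any of these genes. None of the 9 genes on Days 8 and 10, and none of the 8 tested on Day 12, passed an adjusted p of 0.05 by the edgeR quasi-likelihood test, where 0.658%, 0.223% and 0.123% of all genes did. The robust GLM and DESeq2 called none of them either. SPRY4 was not tested between sexes on Day 12. At an unadjusted p under 0.05 there was a single such gene, DUSP4 on Day 8 (log2 fold change -0.55, lower in females, edgeR adjusted p = 0.916). Of all genes, 4.59%, 2.36% and 22.7% had an unadjusted p under 0.05 on Days 8, 10 and 12. The log2 differences, female minus male, lay between -0.55 and 0.37 on Day 8, between -0.07 and 0.24 on Day 10, and between -0.64 and 0.66 on Day 12. For FGFR2 on Day 12 the 95% interval of -1.49 to 0.21 still allows a large difference, and for DUSP6 it ran from -0.80 to 0.50. A change of the sex difference between days was called for none of the 9 genes (edgeR interaction, 0 called and 0 at an unadjusted p under 0.05, where 0% of all genes were called, and 100 genes on Day 10 and 2863 on Day 12 had an unadjusted p under 0.05 against Day 8).

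Around these genes, the other parts of the pathway were measured by lists of its roles. Of 24 symbols of FGF ligands and their binding proteins, 4 had a row in the table (FGF2, FGF7, FGF10 and FGF11). FGF10, a ligand of the FGFR2 form found in epithelia, was 0 to 0.219 CPM on Day 8, 0.875 to 2.60 CPM on Day 10 and 3.06 to 12.8 CPM on Day 12, without overlap of the days, and it was called higher in both intervals (edgeR adjusted p = 8.25e-10 and 1.25e-05). FGF7, a ligand of the same receptor form, was at most 0.466 CPM on Day 8 and between 0.222 and 59.98 CPM on Day 10, with a median of 2.12, and was called higher on Day 10 (edgeR adjusted p = 1.05e-05). FGF2 went from 2.18 ± 0.891 to 0.945 ± 0.330 CPM (log2 fold change -1.19, edgeR adjusted p = 7.50e-04) and back to 2.49 ± 1.20 CPM (1.40, edgeR adjusted p = 1.002e-04).

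Of 12 other receptors and co-receptors, all measured, 1 was called higher from Day 8 to Day 10 and 1 lower, against 9.88% and 4.20% of all genes. FGFR3 went from 26.8 ± 2.98 to 57.6 ± 9.68 CPM (log2 fold change 1.10, edgeR adjusted p = 3.36e-09), and the heparan sulfate carrier SDC4 from 64.2 ± 6.76 to 19.8 ± 5.31 CPM (-1.69, edgeR adjusted p = 3.99e-12). On the next interval 4 were called higher and none lower, against 14.9% and 8.39% of all genes. They were GPC3 (2.63) and GPC1 (1.42), which are glypicans, KLB (1.21), the co-receptor of endocrine FGFs, and FLRT3 (1.14), a membrane protein that binds FGF receptors. FGFR3 was at 58.6 ± 14.7 CPM on Day 12 (0.02), and the receptor FGFR4 was called on neither interval (-0.68 and 0.19).

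The relay from receptor to ERK was measured with all of its 23 listed genes. None was called from Day 8 to Day 10, where 9.88% of all genes were called higher and 4.20% lower, and their log2 fold changes lay between -0.62 and 0.71. From Day 10 to Day 12, 3 were called higher, the scaffold KSR1 (1.49), the RAS activator SOS1 (1.11) and the adaptor FRS2 (1.01), and 2 lower, the ERK substrate RPS6KA1 (-1.29) and NRAS (-1.02), shares close to the 14.9% and 8.39% of all genes.

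Of 17 other feedback inhibitors, 14 were measured. DUSP5, another nuclear ERK phosphatase, rose on the first interval and fell on the second, as DUSP6 did, from 41.3 ± 19.1 to 406 ± 198 CPM (log2 fold change 3.30, edgeR adjusted p = 4.92e-11) and down to 116 ± 38.1 CPM (-1.80, edgeR adjusted p = 7.19e-07). Unlike DUSP6, it was still called higher on Day 12 than on Day 8 (log2 fold change 1.49, edgeR adjusted p = 8.80e-06). DUSP9, a cytoplasmic ERK phosphatase, rose in both intervals (2.31 and 3.24), from 0.796 ± 0.298 to 3.87 ± 1.88 and 36.9 ± 33.4 CPM. DUSP7 fell to Day 10 (-1.02). SPRY1 fell from Day 10 to Day 12 (-2.22), from 2.16 ± 0.700 to 0.491 ± 0.533 CPM, as did CBL (-1.41), the ubiquitin ligase of activated receptors, whereas DUSP1, a phosphatase with a wider range of kinase substrates, rose (1.49). In all, 2 of the 14 were called higher and 1 lower on the first interval, where 9.88% and 4.20% of all genes were, and 2 higher and 3 lower on the second, where 14.9% and 8.39% were.

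Of 20 other genes known as transcribed targets of ERK, 18 were measured. From Day 8 to Day 10, 3 were called higher (IER3, ELK3 and ETS2) and 1 lower (MYC), where 9.88% and 4.20% of all genes were. From Day 10 to Day 12, 8 were called higher (FOS, FOSL1, EGR1, CCND1, PHLDA1, EPHA2, EPHA4 and KLF4) and 1 lower (ETS2), where 14.9% and 8.39% of all genes were. CCND1, the cyclin of the G1 phase, rose from 2.003 ± 0.794 to 47.0 ± 14.97 CPM (log2 fold change 4.55, edgeR adjusted p = 8.52e-16), and EPHA4, an ephrin receptor, from 0.522 ± 0.236 to 14.6 ± 6.39 CPM (4.79, edgeR adjusted p = 5.93e-15). FOSL1, a partner of JUN, was at most 0.412 CPM in the Day 10 embryos and between 4.06 and 20.6 CPM on Day 12 (edgeR adjusted p = 3.38e-11). PHLDA1 rose from 19.7 ± 3.27 to 107 ± 35.1 CPM (2.44). These genes were thus called higher on the interval on which DUSP6 and SPRY2 were called lower, so the genes used as readouts of ERK did not all move the same way. The median of this list was 0.77 on the log2 scale, against 0.04 for all genes, and 8 of 18 were without overlap, against 16.6% of all genes.

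Receptors of the EGF family feed the same ERK relay, and 7 of its 10 listed genes were measured. From Day 8 to Day 10, 3 were called higher, the receptor ERBB4 (3.87) and the ligands HBEGF (2.22) and EREG (1.52), and none lower, against 9.88% and 4.20% of all genes. EREG went from 212 ± 32.2 to 610 ± 183 CPM and then fell to 99.1 ± 48.9 CPM (-2.62, edgeR adjusted p = 4.96e-11), again the course of DUSP6. ERBB3, a receptor without strong kinase activity of its own, rose from 303 ± 105.03 to 1185 ± 456 CPM on Day 12 (1.97, edgeR adjusted p = 6.52e-10).

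**Figure D5:**
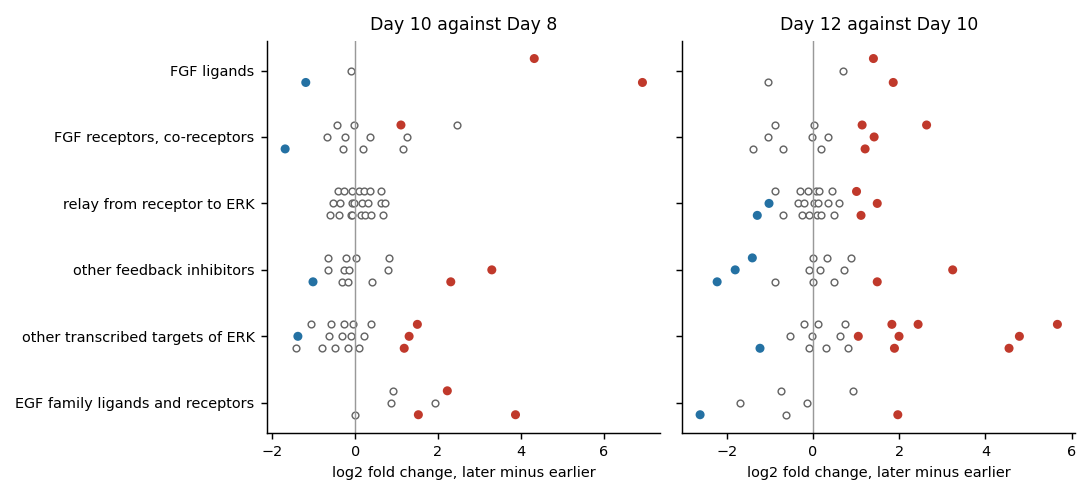
Log2 fold change (later minus earlier day) of the measured genes of each list of pathway roles, with the 9 genes described first left out, where red points were called higher, blue points lower and open circles neither. The 23 relay genes cluster around 0 on the first interval, and on the second 8 of 18 other ERK targets lie to the right, led by FOSL1 at 5.67, EPHA4 at 4.79 and CCND1 at 4.55.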

How the data were processed

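The authors deposited raw read counts for each gene, listed by NCBI identifier, from 100-bp single-end reads of stranded mRNA libraries. They trimmed reads with Trim Galore, removed 3 bases from the 5′ end, mapped to Sscrofa11.1 (NCBI annotation) and dropped genes below some CPM value. That value, the aligner and the counter are not given in the sources used here. Days were compared in the table of all embryos (13103 genes) and sexes in the table of each day (11405, 11675 and 12220 genes). No 2 embryos of a group agreed within sampling noise (60 pairs, lowest chi-square per degree of freedom 7.64).

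Genes were tested with edgeR 4.0.16 in R 4.3.3 (quasi-likelihood F test, robust dispersion, TMM factors, Benjamini-Hochberg adjustment over all genes, 1 fit of 3 day groups). Each SE was taken from the log2 fold change and F. Calls between sexes needed an adjusted p under 0.05. Ratios and correlations used log2 CPM with a prior count of 2 and two-sided permutation tests with 100000 resamples (scipy 1.17.1), adjusted over 21 tests each. The scripts were tested on simulated data. Alternatives were the robust GLM of the study, DESeq2 1.42.0, other scalings and filters, a sex term, 2 days in the fit, embryos of a single sex, a test against the fold threshold, and embryos left out. Calls of the test against the fold threshold needed an adjusted p under 0.05. All members are named, and from each list of pathway roles up to 4 called genes with the largest log2 fold change per interval. CBL, FRS2, FOS, EGR1, EPHA2 and KLF4, which complete counts, and FGF11 and FGFR4 were named after their values were seen. The members and lists were chosen with earlier results of these data known. Symbols and positions are those of the Sscrofa11.1 gene table.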

Additional observations from a re-analysis of the deposited data

Results flagged for a closer look

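In 4 of 81 groups of 5 or 10 embryos, the highest or the lowest embryo stood apart from the rest by Dixon's test, and chance flags about 5% of groups. DUSP4 was 5.71 CPM in Day 10 male d10_m_453 and 0.738 to 0.958 CPM in the other 4 males. SPRY2 was 8.18 CPM in Day 10 female d10_f_454 and 3.84 to 4.77 CPM in the other 4 females. SPRY4 was 1.47 CPM in Day 12 male d12_m_307 and 0.190 to 0.320 CPM in the other 4 males. ETV4 was 0.899 CPM in Day 12 male d12_m_275 and 4.22 to 5.22 CPM in the other 4 males.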

How the results depend on the processing

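Of 378 log2 fold changes of the 9 genes between days under 14 alternatives, 338 kept their direction and their side of the threshold, 19 lost the call, 14 gained it and 7 turned sign, and no value that turned had been called. The 7 were FGFR1 from Day 8 to Day 10 with library size alone (-0.0711), ETV4 on that interval with female embryos only (0.103) and without d10_m_453 and d10_f_454 (0.0514), and ETV5 from Day 8 to Day 12 with library size alone (0.0142), a mean of 1 CPM (0.00851), female embryos only (0.0890) and without d12_f_245, d12_f_271 and d12_m_307 (0.131). Both omissions were chosen after seeing the data. With embryos of 1 sex, the called genes went from 3 to 1 in females and 1 in males on the first interval, FGFR2 in each. They went from 5 to 2 in females (SPRY2 and DUSP6) and 3 in males (FGFR2, DUSP6 and SPRED2) on the second. Over the whole span they went from 5 to 3 in males. Embryos of 1 sex numbered 5 per day in place of 10. The test against a log2 fold change of 1 left 1 on the first interval (FGFR2). Ratios that changed from Day 10 to Day 12 went from 5 to 3 in females. Over all genes these fits called 977 (females), 1067 (males) and 1155 (fold threshold) in place of 1845 on the first interval, and 2003 (males) in place of 3050 on the second. Between sexes each embryo left out gave 0 to 0 of the 9 genes, while over all genes the robust GLM called 1.37%, 0.360% and 0.827% and DESeq2 1.13%, 0.454% and 1.18% in place of 0.658%, 0.223% and 0.123%. Library size alone shifted the median of all genes by -0.18 and 0.20 on the 2 intervals, and 72.9% of its calls on the second were higher in place of 64.0%. It put SPRED2 at 1.18 on the second. SPRY4, DUSP4 and ETV4 had few counts, which limits their precision. No paired analysis was possible because the groups share no replicate numbers.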
